A study of Mus musculus with 12 samples.

Results

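The 9 genes described here make glucose or answer to insulin in the liver: the gluconeogenic enzymes Pck1, G6pc, Fbp1 and Pcx, the amino acid degrading enzymes Tat and Tdo2, and the regulators Ppargc1a, Foxo1 and Irs2. They were taken as every probe set whose platform symbol was one of these names, which gave 18 of 22626 probe sets and 9 of 12393 named genes. Affymetrix 3′ arrays measured their RNA in 4 groups of 3 samples: mesenchymal cells isolated after phenobarbital, mesenchymal cells isolated after vehicle, and hepatocytes isolated after phenobarbital or after vehicle. All mice were male C57BL/6N animals of 12 weeks, an inbred wild-type strain. The treated mice drank phenobarbital at 50 mg/kg per day for 14 days, and the controls drank tap water alone over the same time. The labels count each array as its own sample without saying how many animals it stands for, so a p-value weighs a difference against the spread of these arrays, which may be technical. Levels are log2 values normalized by RMA (robust multi-array average), in which a step of 1 is a doubling, with the 3 arrays of a group given in the order of their replicate numbers. They are not compared between genes because each probe set binds its target with its own strength.

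Gluconeogenesis builds glucose from lactate, glycerol and amino acids, and in the fasting liver it keeps blood glucose up. Pyruvate carboxylase (Pcx) and phosphoenolpyruvate carboxykinase (Pck1) carry pyruvate past the irreversible last step of glycolysis, fructose-1,6-bisphosphatase (Fbp1) reverses a later one, and the catalytic subunit of glucose-6-phosphatase (G6pc) releases free glucose. Glucagon raises these enzymes through cAMP, CREB and the coactivator PGC-1α (Ppargc1a). Insulin lowers them by way of the insulin receptor substrate IRS2 and the kinase AKT, which drives the transcription factor FOXO1 out of the nucleus. Tyrosine aminotransferase (Tat) and tryptophan 2,3-dioxygenase (Tdo2) are classic glucocorticoid-induced liver enzymes that open the breakdown of tyrosine and tryptophan. Phenobarbital activates the nuclear receptor CAR in the liver, and activated CAR has been described in mice as lowering Pck1 and G6pc. The treatment comparison gives the levels of these genes after 14 days of the drug.

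The hormone inputs named above act in part through short promoter elements, so the promoters that held such an element in the 250 bases before the start site are shown, with those elements in capitals. Both strands were searched for ACGTCA (the core of a cAMP response element), TGTTTAC (a FOXO core), TGTTTTG (an insulin response sequence), TGTTCT (a glucocorticoid receptor half-site) and TTACGTAA (a site for PAR-bZIP factors such as DBP); these strings do not overlap one another in the windows shown. The sequences are from RefSeq on GRCm38.p6 and run 5′ to 3′ on the strand of the gene, and all 9 genes matched a promoter entry. The Pck1 window is chr2:173152823-173153072 (+), G6pc chr11:101367466-101367715 (+), Ppargc1a chr5:51567726-51567975 (−) and Irs2 chr8:11008930-11009179 (−).
Pck1: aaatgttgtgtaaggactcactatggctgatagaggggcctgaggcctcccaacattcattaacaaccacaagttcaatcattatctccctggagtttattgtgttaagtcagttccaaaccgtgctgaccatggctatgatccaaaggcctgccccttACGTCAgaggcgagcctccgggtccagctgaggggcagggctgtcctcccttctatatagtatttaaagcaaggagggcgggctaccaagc
G6pc: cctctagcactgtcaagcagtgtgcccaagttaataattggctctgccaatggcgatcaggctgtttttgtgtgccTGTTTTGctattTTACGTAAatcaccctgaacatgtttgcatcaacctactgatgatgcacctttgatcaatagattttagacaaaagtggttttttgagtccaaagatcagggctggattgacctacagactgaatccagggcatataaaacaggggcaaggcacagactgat
Ppargc1a: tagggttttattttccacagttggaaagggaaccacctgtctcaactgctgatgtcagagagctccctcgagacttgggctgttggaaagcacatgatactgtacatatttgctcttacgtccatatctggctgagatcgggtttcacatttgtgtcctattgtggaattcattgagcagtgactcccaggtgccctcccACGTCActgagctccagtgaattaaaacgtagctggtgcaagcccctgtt
Irs2: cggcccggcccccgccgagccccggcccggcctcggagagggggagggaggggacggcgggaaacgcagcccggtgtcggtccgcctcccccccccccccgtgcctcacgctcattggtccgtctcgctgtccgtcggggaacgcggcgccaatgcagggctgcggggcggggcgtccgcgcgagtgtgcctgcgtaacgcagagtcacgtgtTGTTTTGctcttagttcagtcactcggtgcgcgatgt
ACGTCA began at position −91 of Pck1 and at −50 of Ppargc1a, counted back from the start site. TGTTTTG began at −174 of G6pc and at −37 of Irs2, and TTACGTAA began at −162 of G6pc. Of 32851 RefSeq promoter windows of the same length, 6.47% held ACGTCA, 5.56% held TGTTTTG and 0.113% held TTACGTAA. TGTTTAC, present in 3.17% of windows, and TGTTCT, present in 16.1%, were in none of the members' windows. These are matches of letters in a short window and say nothing of factor binding.

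The labels were checked on marker genes before the members were read. Cyp2b10, the standard CAR target, had 13.06, 14.15 and 12.87 in hepatocytes of phenobarbital mice, against 7.80, 8.01 and 7.72 in hepatocytes of vehicle mice. The mean log2 level of 12 Kupffer cell markers was 13.60 to 14.03 on mesenchymal arrays and 5.91 to 6.53 on hepatocyte arrays. That of 13 endothelial markers was 11.80 to 12.40 on mesenchymal arrays and 6.14 to 6.55 on hepatocyte arrays, so the fraction labelled mesenchymal carried macrophage and endothelial RNA. Stellate cell markers averaged 7.99 to 8.77 on mesenchymal arrays and 5.83 to 6.04 on hepatocyte arrays, and other leukocyte markers 8.19 to 9.20 and 5.84 to 6.08 in the same order. The 13 measured of 15 hepatocyte markers averaged 11.34, 10.36 and 10.13 on the mesenchymal arrays of phenobarbital mice and 9.72, 10.66 and 10.35 on those of vehicle mice, against 14.04 to 14.15 on hepatocyte arrays. The vehicle arrays numbered 1 stood apart in both populations for clock genes. Dbp, a clock output gene, was 6.21 in hepatocytes and 6.52 in mesenchymal cells on those arrays, while the other 10 arrays had 11.60 to 12.15. Arntl, a core clock gene, was 9.57 and 9.36 on those arrays and at most 6.20 on the other hepatocyte arrays and 7.31 on the other mesenchymal arrays.

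In hepatocytes no member passed the test between phenobarbital and vehicle, among the 6 enzymes and among the 3 regulators. Differences between phenobarbital and vehicle, on the log2 scale, ran from −0.37 for Irs2 to 0.07 for G6pc and Foxo1. The fit (limma, 6 hepatocyte arrays, Benjamini-Hochberg adjusted p under 0.05 over all genes tested) called 4 of 8117 genes, a background of 0.0493%: Cyp2b10, Cyp2c29, Cyp2c55 and Fdft1. Fdft1, the squalene synthase, was at −0.63 (adjusted p = 0.0486) and did not pass in any fit that left out 1 array. It called 0 of the 9 members, and 0 of 9 had an unadjusted p under 0.05, a level that 680 genes, or 8.38%, reached. The 3 phenobarbital and 3 vehicle arrays overlapped for all 9 members, whereas they were apart in 15.1% of the genes tested. Differences were positive in 4 members and negative in 5, with a median of −0.0038, the same to the digits shown as the median of all genes tested.

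**Figure D1:**
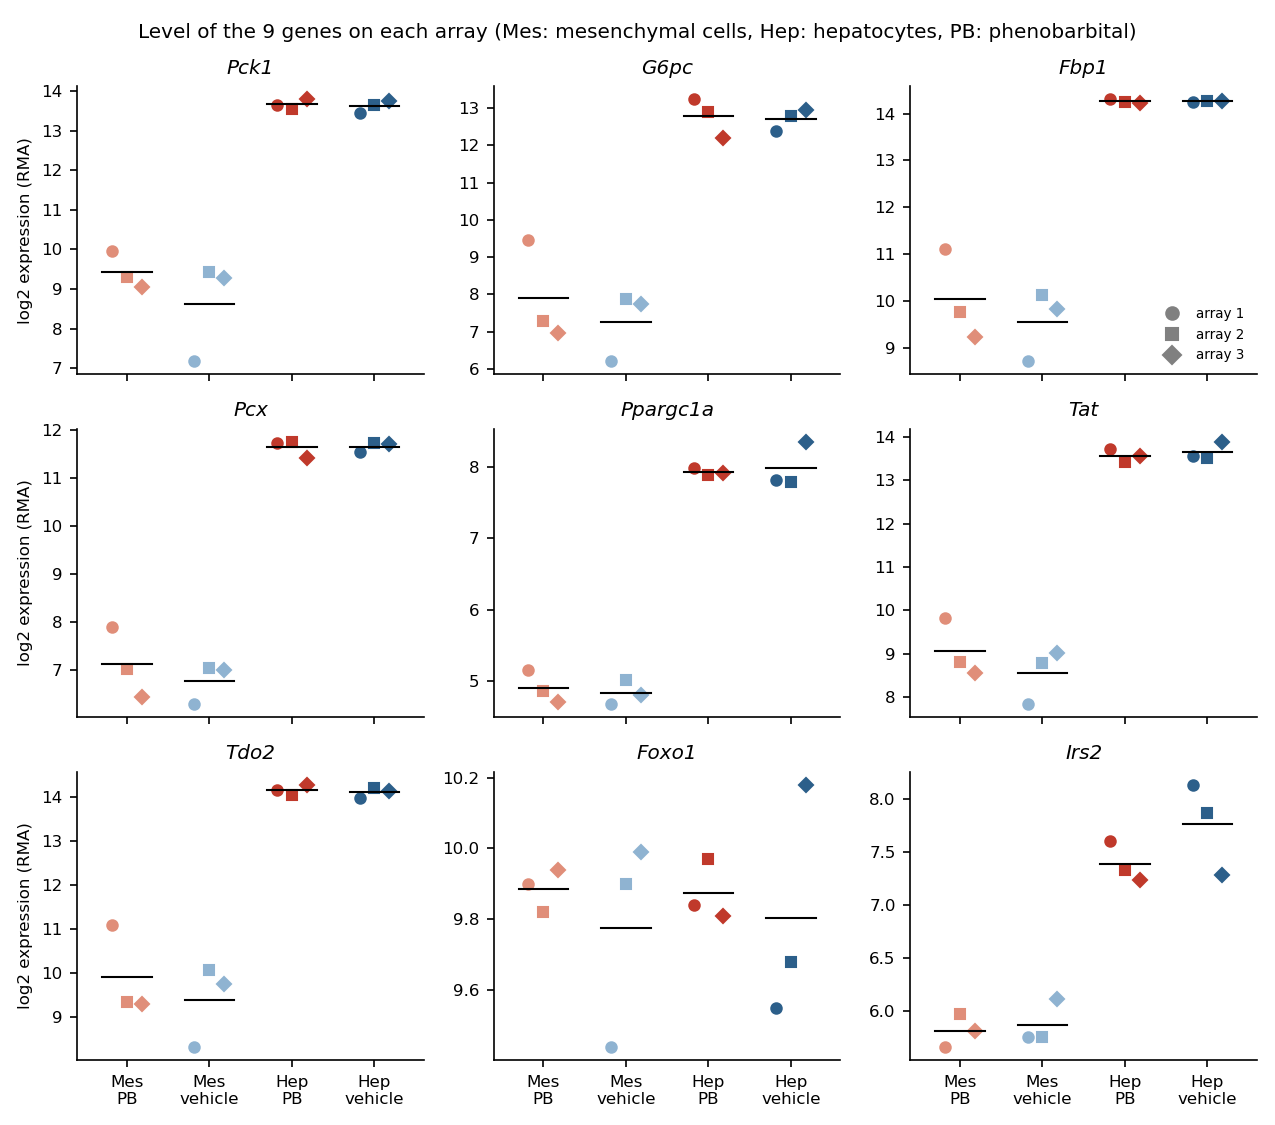
Log2 level of each of the 9 genes on each of the 12 arrays, with 1 panel per gene, groups of 3 arrays on the x axis and the group mean as a bar. Phenobarbital and vehicle arrays overlap in hepatocytes for all 9 genes, and hepatocytes lie above mesenchymal cells for all but Foxo1.

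Pck1, which makes phosphoenolpyruvate from oxaloacetate, had 13.66, 13.55 and 13.80 in hepatocytes of phenobarbital mice, against 13.44, 13.65 and 13.76 in hepatocytes of vehicle mice. The phenobarbital arrays held both the highest value and values between the vehicle ones. The difference was 0.05 ± 0.10 (SE, as for all differences given here; n = 3 arrays each), with a 95% interval of −0.18 to 0.28 and a limma adjusted p of 0.9. G6pc, the last enzyme before glucose leaves the cell, varied more, with 13.24, 12.90 and 12.20 under phenobarbital and 12.39, 12.78 and 12.96 under vehicle. Phenobarbital array 1 was the highest of the 6 and phenobarbital array 3 the lowest, so the treated arrays enclosed all the vehicle arrays. Its difference of 0.07 ± 0.26 had an interval of −0.53 to 0.67 (limma adjusted p = 0.954), the widest interval of the 6 enzymes.

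Fbp1, which removes the phosphate at carbon 1 of fructose-1,6-bisphosphate, was the steadiest member. It had 14.31, 14.25 and 14.23 in hepatocytes of phenobarbital mice and 14.24, 14.28 and 14.28 in hepatocytes of vehicle mice. Its difference of −0.0038 ± 0.05 was bounded between −0.12 and 0.11 (limma adjusted p = 0.988). These values lie close to the top of the scale, since the highest probe set of an array reached 14.9 to 15.2, and saturation of the probe sets was not tested. Pcx, the mitochondrial enzyme that feeds oxaloacetate into the pathway, had 11.73, 11.75 and 11.42 under phenobarbital and 11.53, 11.72 and 11.71 under vehicle. Here too phenobarbital arrays were both the highest and the lowest, and the difference was −0.02 ± 0.11, with an interval of −0.27 to 0.23 (limma adjusted p = 0.97).

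Tat, which transfers the amino group of tyrosine, had 13.73, 13.42 and 13.57 in hepatocytes of phenobarbital mice and 13.57, 13.51 and 13.89 in hepatocytes of vehicle mice. The highest value was vehicle array 3 and the lowest phenobarbital array 2. The difference was −0.09 ± 0.12, with an interval of −0.36 to 0.19 (limma adjusted p = 0.862). Tdo2, which opens the indole ring of tryptophan, had 14.15, 14.03 and 14.27 under phenobarbital and 13.96, 14.19 and 14.13 under vehicle. The order of the 6 arrays again mixed the treatments, with a difference of 0.06 ± 0.08 and an interval of −0.14 to 0.26 (limma adjusted p = 0.866). A second Tdo2 probe set, 1449337_at, gave the same picture, with 12.30, 12.28 and 12.72 under phenobarbital and 12.14, 12.51 and 12.43 under vehicle.

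Among the regulators, Irs2 had the widest difference of any member. Irs2, the adaptor through which the insulin receptor signals in liver, had 7.61, 7.33 and 7.24 in hepatocytes of phenobarbital mice, against 8.14, 7.87 and 7.29 in hepatocytes of vehicle mice. The 2 highest arrays were vehicle arrays, but vehicle array 3 lay among the phenobarbital arrays. The difference was −0.37 ± 0.22, a ratio of 0.773, with an interval of −0.87 to 0.13 (limma, unadjusted p = 0.125, adjusted p = 0.674). It depended on which vehicle array was left out: it was −0.18 without vehicle array 1 and −0.61 without vehicle array 3, and the adjusted p was between 0.443 and 0.873 in all fits that left out 1 array.

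Ppargc1a, the coactivator that glucagon and fasting raise, had 7.98, 7.89 and 7.91 in hepatocytes of phenobarbital mice and 7.82, 7.79 and 8.35 in hepatocytes of vehicle mice. Vehicle array 3 was the highest and the other vehicle arrays the lowest, and the difference was −0.06 ± 0.15, with an interval of −0.41 to 0.30 (limma adjusted p = 0.934). Foxo1, the transcription factor that insulin inactivates, had 9.84, 9.97 and 9.81 under phenobarbital and 9.55, 9.68 and 10.18 under vehicle. It showed the same order within the vehicle group, with array 3 above and arrays 1 and 2 below all treated arrays. The difference was 0.07 ± 0.16, with an interval of −0.30 to 0.44 (limma adjusted p = 0.924).

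Several probe sets measured these regulators, and they shared the behaviour of vehicle array 3. For Ppargc1a, vehicle array 3 was the highest of the 6 hepatocyte arrays in 5 of 5 probe sets. Probe set 1460336_at, for example, had 8.62, 8.42 and 8.42 under phenobarbital and 8.42, 8.24 and 8.88 under vehicle. Probe set 1434099_at had 6.81, 6.25 and 6.65 under phenobarbital and 6.73, 6.82 and 6.98 under vehicle, and its difference of −0.27 ± 0.16 was the widest of the 5 (limma adjusted p = 0.694). For Foxo1, vehicle array 3 was the highest in 3 of 4 probe sets and vehicle array 1 the lowest in 4 of 4, counting 1456529_at, which stayed below the 40th percentile at 5.41 to 5.98. Foxo1 probe set 1416982_at had 8.35, 8.44 and 8.43 under phenobarbital and 8.10, 8.30 and 8.85 under vehicle, a difference of −0.01 ± 0.18, so the sign of the Foxo1 difference depended on the probe set. A second Pck1 probe set, 1455209_at, stayed at 4.15 to 5.17 on all hepatocyte arrays, below the 40th percentile of 6.54 to 6.60, and did not stand for the gene. Averaging it with the other Pck1 probe set turned the Pck1 difference to −0.15.

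**Figure D2:**
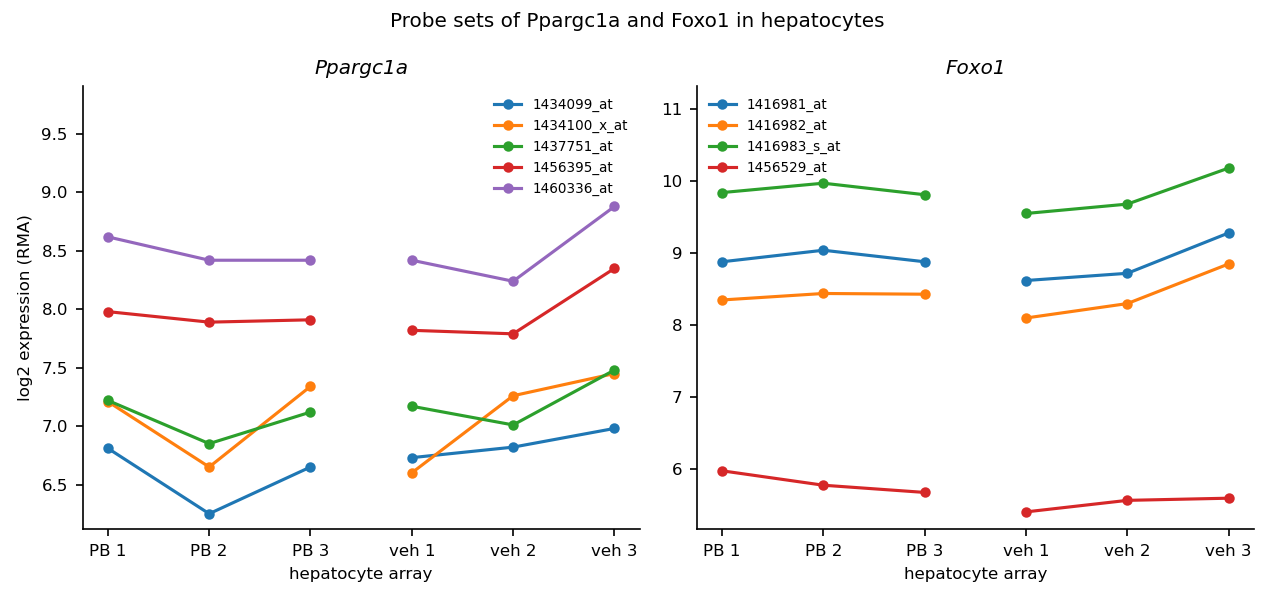
Log2 level of every probe set of Ppargc1a and of Foxo1 on the 6 hepatocyte arrays, phenobarbital arrays left of vehicle arrays and 1 line per probe set. Vehicle array 3 is the highest array in 5 of 5 Ppargc1a probe sets and in 3 of 4 Foxo1 probe sets.

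Across the 6 hepatocyte arrays the members did not move as 1 block. G6pc correlated with Pcx at r = 0.91 and with Fbp1 at 0.89, Pck1 with Tdo2 at 0.89, Ppargc1a with Tat at 0.87 and Ppargc1a with Foxo1 at 0.86. Pck1 and G6pc, the usual pair of readouts of gluconeogenic gene expression, correlated at 0.02. Irs2 ran against Foxo1, at −0.82, and against Pck1, at −0.74. These are descriptions over n = 6 arrays that share 1 normalization and mix both treatments, with 36 pairs among 9 genes.

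The lists of related genes were chosen with earlier results of these data known, and gave no called member outside the CAR targets. Of those 3 of 4 passed, a count that the choice of the list may have fixed in part. Cyp2b10, Cyp2c29 and Cyp2c55, all P450 enzymes, rose by 5.52, 1.49 and 3.46 on the log2 scale in hepatocytes of phenobarbital mice (limma adjusted p = 0.00123, 0.00862 and 0.0213). Cyp3a11 was at 0.07 ± 0.05 (limma adjusted p = 0.711). Its levels of 14.50 to 14.64 on hepatocyte arrays lay close to the top of the scale, where the arrays reached 14.9 to 15.2. Saturation was not tested, so this small difference is not read further. Beside the 9 members, 15 of 22 listed genes of the gluconeogenic flux were measured and all 15 were tested. Of these, 0 passed, 0 had an unadjusted p under 0.05, and 8 differences were positive and 7 negative, with a median of 0.0037 and a range of −0.30 to 0.25. The 2 widest were Got1, the cytosolic aspartate aminotransferase, at −0.30 ± 0.17 (limma adjusted p = 0.665), and Slc37a4, the transporter that brings glucose-6-phosphate to G6pc, at 0.25 ± 0.19 (0.732). Vehicle array 1 was the lowest hepatocyte array for Slc37a4, at 11.67 against 12.19 to 12.53 on the others. Of the glycolytic and opposing genes 12 of 14 were measured and 10 tested, with 0 passing, 8 positive and a median of 0.09. Pdk1, a kinase that restrains pyruvate dehydrogenase, and Slc2a2, the hepatocyte glucose transporter GLUT2, both had 0.29 ± 0.20 (limma adjusted p = 0.715). For both, vehicle array 1 was the lowest hepatocyte array. That array had 9.63 for Pdk1, against 10.26 to 10.49 on the others, and 12.39 for Slc2a2, against 12.90 to 13.39. In the breakdown of tyrosine and tryptophan beyond Tat and Tdo2, 10 of 12 genes were measured and tested, with 0 passing and a median of −0.02. Kynu, the kynureninase downstream of Tdo2, had the widest difference, −0.42 ± 0.18 (limma adjusted p = 0.592), and Afmid, the kynurenine formamidase, had 0.22 ± 0.13 (0.686).

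The following counts at an unadjusted p under 0.05 stand beside 8.38% of all genes tested, and groups that were apart beside 15.1%. Of the insulin signalling genes other than Irs2, 17 were tested and 0 passed, 3 had an unadjusted p under 0.05, and 12 differences were negative, with a median of −0.09. Socs3 and Socs2, both feedback inhibitors of cytokine signalling, had −1.11 ± 0.67 (limma adjusted p = 0.684) and −0.78 ± 0.33 (0.592). Of the other FOXO genes and FOXO targets 13 were tested and 0 passed, with 2 at an unadjusted p under 0.05, 7 positive differences and a median of 0.12. Within this list Igfbp1, a secreted binding protein of insulin-like growth factors that insulin represses, had 11.10, 10.48 and 10.59 in hepatocytes of phenobarbital mice, against 12.89, 11.98 and 12.21 in hepatocytes of vehicle mice. The groups did not overlap, and the difference was −1.64 ± 0.25 (limma adjusted p = 0.146). Bcl6, a transcriptional repressor, had 10.07, 10.39 and 10.24 under phenobarbital and 9.31, 7.65 and 8.38 under vehicle. Its groups were apart as well, at 1.78 ± 0.36 (limma adjusted p = 0.293).

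Among the glucagon and cAMP genes 14 were tested and 0 passed, with 4 at an unadjusted p under 0.05, 10 negative differences and a median of −0.04. Nr4a1, a nuclear receptor that glucagon induces, had −0.77 ± 0.27 (limma adjusted p = 0.543). Ppargc1b, the relative of Ppargc1a, had 9.63, 9.56 and 9.32 in hepatocytes of phenobarbital mice and 8.17, 9.15 and 9.20 in hepatocytes of vehicle mice. Those groups were apart, at 0.66 ± 0.26 (limma adjusted p = 0.572), and vehicle array 1 lay well below the other 5 arrays. Of the glucocorticoid response genes 15 were tested and 0 passed, 4 had an unadjusted p under 0.05, and the median was −0.03. Sgk1, a kinase induced by glucocorticoids, had 0.54 ± 0.23 (limma adjusted p = 0.592), and Per1, a clock gene with a glucocorticoid response, had 0.49 ± 0.33 (0.708). For Per1, vehicle array 1 was the lowest hepatocyte array, at 7.63 against 8.83 to 9.11 on the others. Of the hepatic regulators 11 were tested and 0 passed, 4 had an unadjusted p under 0.05, and the median was −0.08. Onecut1, a hepatocyte transcription factor also called HNF6, was at 8.55 or lower on the phenobarbital arrays and at 9.08 or higher on the vehicle arrays. Onecut1 had a difference of −1.16 ± 0.18 (limma adjusted p = 0.149), and Foxa1, a pioneer factor, of −0.86 ± 0.28 (0.507). Of the clock genes 12 were tested and 0 passed, with Dbp at 2.12 ± 1.34 (limma adjusted p = 0.695) and Nfil3, its repressor counterpart, at −1.09 ± 0.39 (0.543). The median over all genes tested was −0.0038.

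Between the populations the 6 enzymes were lower in mesenchymal cells than in hepatocytes, in phenobarbital and in vehicle mice alike, and Foxo1 was not. Ppargc1a and Irs2 were called lower too, for a count of 8 of 9, but they lay under the filter on all 6 mesenchymal arrays and entered the fit through hepatocytes, where they were high. These fits used all 12 arrays. In phenobarbital mice limma called 7503 of 9031 genes, or 83.1%, of which 40.9% of the genes tested were lower in mesenchymal cells. In vehicle mice it called 7470, or 82.7%, with 40.7% lower. The median difference of the members, mesenchymal minus hepatocyte, was −4.23 in phenobarbital mice and −4.71 in vehicle mice, against 0.03 and 0.02 over all genes tested. The 13 hepatocyte markers had medians of −3.91 in phenobarbital mice and −4.31 in vehicle mice, all 13 lower. In bulk samples fewer hepatocytes and less RNA of a gene per cell cannot be told apart.

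**Figure D3:**
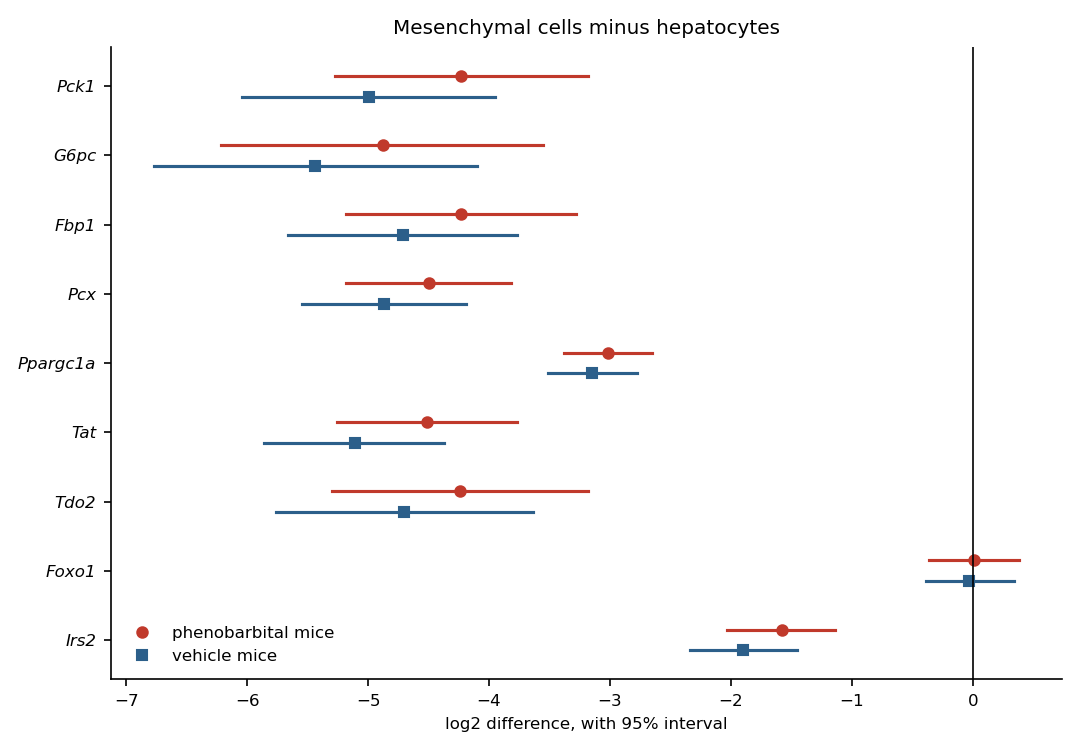
Mesenchymal minus hepatocyte difference (log2) of each member with its 95% interval, in phenobarbital mice and in vehicle mice. The 6 enzymes lie between −4.23 and −5.44, and Foxo1 at 0.01 and −0.03, while Ppargc1a and Irs2 are drawn from mesenchymal signals under the filter.

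Pck1 had 9.95, 9.31 and 9.06 in mesenchymal cells of phenobarbital mice and 7.17, 9.43 and 9.27 in those of vehicle mice, all below the lowest hepatocyte value of 13.44. The difference was −4.23 ± 0.47 in phenobarbital mice and −4.99 ± 0.47 in vehicle mice (limma adjusted p = 5.48e-06 and 1.27e-06). G6pc had 9.45, 7.28 and 6.97 in mesenchymal cells of phenobarbital mice and 6.20, 7.88 and 7.73 in those of vehicle mice. Among the probe sets that stood for the members, it had the widest difference in both treatments. That difference was −4.88 ± 0.61 in phenobarbital mice and −5.44 ± 0.61 in vehicle mice (limma adjusted p = 1.34e-05 and 5.28e-06), with the 6.20 of mesenchymal vehicle array 1 under the filter. The other Tdo2 probe set, 1449337_at, differed by −4.80 ± 0.37 in phenobarbital mice and by −5.46 ± 0.37 in vehicle mice. Fbp1 had 11.12, 9.76 and 9.22 in mesenchymal cells of phenobarbital mice and 8.71, 10.13 and 9.82 in those of vehicle mice. Its difference was −4.23 ± 0.43 in phenobarbital mice and −4.71 ± 0.43 in vehicle mice (limma adjusted p = 2.31e-06 and 8.89e-07).

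Pcx had 7.91, 7.04 and 6.45 in mesenchymal cells of phenobarbital mice and 6.30, 7.05 and 7.00 in those of vehicle mice, values around the 40th percentile of these arrays. It differed by −4.50 ± 0.31 in phenobarbital mice and −4.87 ± 0.31 in vehicle mice (limma adjusted p = 6.94e-08 and 3.5e-08). Tat had 9.83, 8.81 and 8.54 in mesenchymal cells of phenobarbital mice and 7.83, 8.78 and 9.02 in those of vehicle mice, and differed by −4.51 ± 0.34 and −5.11 ± 0.34 (limma adjusted p = 1.54e-07 and 5.07e-08). Tdo2 had 11.08, 9.34 and 9.31 in mesenchymal cells of phenobarbital mice and 8.33, 10.07 and 9.76 in those of vehicle mice, and differed by −4.24 ± 0.48 and −4.70 ± 0.48 (limma adjusted p = 6.28e-06 and 2.53e-06). For each of these 6 enzymes, and for Ppargc1a and Irs2, the mesenchymal arrays lay below all hepatocyte arrays; the groups were apart in 85.7% of all genes tested in phenobarbital mice and in 84.4% in vehicle mice. In the 6 enzymes mesenchymal phenobarbital array 1 was the highest and vehicle array 1 the lowest of the mesenchymal arrays.

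Ppargc1a stayed between 4.68 and 5.16 on all mesenchymal arrays, at percentiles 13.9 to 20, and so entered the test only through hepatocytes. Its difference of −3.02 ± 0.17 in phenobarbital mice and −3.15 ± 0.17 in vehicle mice (limma adjusted p = 1.07e-08 and 7.26e-09) is set by a low mesenchymal signal that may be background, so its size is not read further. Irs2, at 5.66, 5.97 and 5.81 in mesenchymal cells of phenobarbital mice and 5.75, 5.75 and 6.11 in those of vehicle mice, was also below the 40th percentile on all 6 mesenchymal arrays. Its fitted difference of −1.58 ± 0.20 in phenobarbital mice and −1.90 ± 0.20 in vehicle mice (limma adjusted p = 1.65e-05 and 3.44e-06) has the same limit. Irs1, the related insulin receptor substrate, and Insr, the receptor itself, were under the filter on all 6 mesenchymal arrays and above it on all 6 hepatocyte arrays, so no size is given for them.

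Foxo1 was the exception. It had 9.90, 9.82 and 9.94 in mesenchymal cells of phenobarbital mice and 9.44, 9.90 and 9.99 in those of vehicle mice, within the hepatocyte range of 9.55 to 10.18 except for mesenchymal vehicle array 1. The difference was 0.01 ± 0.17 in phenobarbital mice, with an interval of −0.36 to 0.38, and −0.03 ± 0.17 in vehicle mice, with −0.39 to 0.34 (limma adjusted p = 0.961 and 0.889). RMA brings the arrays close to a common distribution but left their medians at 7.19 to 7.44. Centring each array on its median moved the population differences by −0.22 on average over both treatments. Foxo1 then stood at −0.22 in phenobarbital mice and −0.24 in vehicle mice (limma adjusted p = 0.227 and 0.189). Of its relatives, Foxo3 had −0.33 in phenobarbital mice and 0.05 in vehicle mice (limma adjusted p = 0.123 and 0.818). Foxo4 was called lower, at −0.59 in phenobarbital mice and −0.41 in vehicle mice (limma adjusted p = 0.00114 and 0.0112). Its mesenchymal values of 6.65 to 6.83 lay around the filter, at percentiles 39.9 to 42.4, so the size of its difference is not read further.

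Set against the mean of the 6 hepatocyte arrays on the linear scale, the mesenchymal arrays gave low values for the enzymes. The median of the 6 enzymes was 8.95%, 3.87% and 2.99% of the hepatocyte level on the mesenchymal arrays of phenobarbital mice and 1.81%, 4.76% and 4.37% on those of vehicle mice. The median of the 13 hepatocyte markers followed the same order, with 11%, 5.28% and 4.83% in phenobarbital mice and 4.56%, 6.45% and 5.43% in vehicle mice. The order was shared but the values were not parallel, and single markers spanned 7.43% to 79.1% on phenobarbital array 1. Foxo1 had 75.6% to 111%. G6pc reached 10.1% on phenobarbital array 1, while its 1.07% on vehicle array 1 comes from a signal under the filter. So do the 2.73% of Pcx on phenobarbital array 3 and its 2.46% on vehicle array 1. These values are part of the enzyme medians and of the correlations below. The 10.3% to 14.4% of Ppargc1a and the 26.4% to 36.1% of Irs2 come from signals under the filter on all 6 arrays, may reflect the floor of the array, and are not set against the enzymes. Over the 6 mesenchymal arrays G6pc correlated with Fbp1 at r = 0.99, with Tdo2 at 0.99 and with Pcx and Tat at 0.97, against 0.89, −0.07, 0.91 and 0.37 over the 6 hepatocyte arrays. These are descriptions over n = 6 arrays, and the part of hepatocyte RNA in the mesenchymal levels was not tested.

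**Figure D4:**
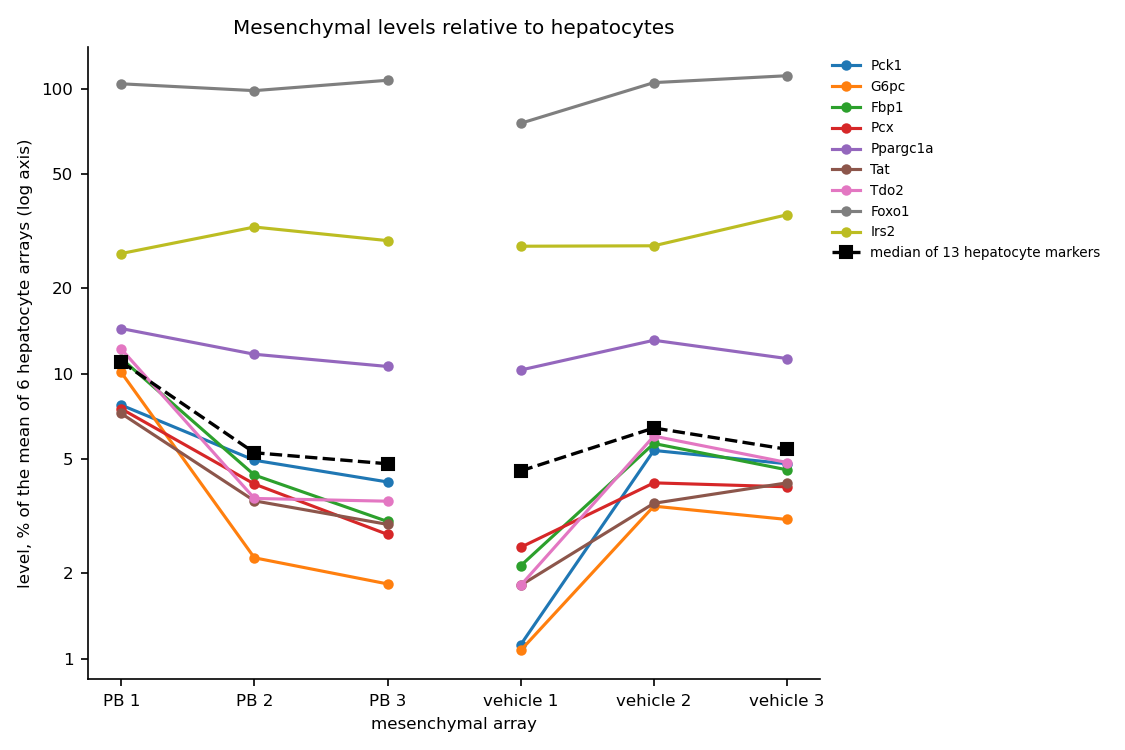
Level of each member on each mesenchymal array as a percent of its mean over the 6 hepatocyte arrays (log axis), phenobarbital arrays left of vehicle arrays, with the median of 13 hepatocyte markers as a dashed line. The enzymes, like the marker line, are highest on phenobarbital array 1 and lowest on vehicle array 1, while Foxo1 stays between 75.6% and 111%.

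Of all genes tested, 40.9% were lower in mesenchymal cells in phenobarbital mice and 40.7% in vehicle mice. Of the related lists, all 10 measured genes of tyrosine and tryptophan breakdown were lower in mesenchymal cells, with medians of −4.06 in phenobarbital mice and −4.35 in vehicle mice. Afmid, Kynu and Ido2 of this list were under the filter on all 6 mesenchymal arrays. They entered the fit through hepatocytes, so the filter in part fixed this count and these medians. Of the 15 gluconeogenic flux genes 14 were lower and 1 higher in both, with medians of −1.65 in phenobarbital mice and −1.74 in vehicle mice. The gene that was higher was Pck2, the mitochondrial form of the carboxykinase, at 1.73 in phenobarbital mice and 1.59 in vehicle mice (limma adjusted p = 3.97e-08 and 8.39e-08), opposite in sign to Pck1. On hepatocyte arrays Pck2 had only 6.62 to 6.81, percentiles 41.2 to 43.6 and just above the filter, so the size of its difference is not read further. Slc37a4, the partner of G6pc, differed by −3.62 in phenobarbital mice and −3.61 in vehicle mice (limma adjusted p = 2.52e-08 and 2.54e-08). Gcgr, the glucagon receptor, differed by −3.24 in phenobarbital mice and −4.15 in vehicle mice (limma adjusted p = 2e-06 and 2.19e-07). The insulin signalling list was mixed, with 7 of 18 higher and 5 lower in phenobarbital mice and 7 higher and 7 lower in vehicle mice. Irs1, Insr and Grb14 of this list were under the filter on all 6 mesenchymal arrays. They too entered through hepatocytes, so the filter in part set the counts of lower genes. Nr3c1, the glucocorticoid receptor, was higher in mesenchymal cells, by 0.78 in phenobarbital mice and 0.59 in vehicle mice (limma adjusted p = 9.24e-06 and 0.000102).

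Within mesenchymal cells no member passed between phenobarbital and vehicle, and the fit called 0 of 8003 genes (0%), with 232, or 2.9%, at an unadjusted p under 0.05. Of the 9 members 7 were tested, 0 had an unadjusted p under 0.05, and the groups were apart in 0 of them, against 7.7% of all genes tested. Ppargc1a and Irs2 were below the filter on all 6 arrays. All 7 differences were positive, from 0.11 ± 0.15 for Foxo1 to 0.82 ± 0.61 for Pck1, with a median of 0.52 beside 0.0049 over all genes tested (limma adjusted p = 0.998 for each). G6pc had 0.63 ± 0.74, Fbp1 0.48 ± 0.56, Pcx 0.35 ± 0.39, Tat 0.52 ± 0.42 and Tdo2 0.52 ± 0.62. The 13 hepatocyte markers were positive in 13 of 13 as well, from 0.06 to 0.63 with a median of 0.35, and the stellate cell markers in 7 of 8, with a median of 0.28. With single arrays left out Pck1 ran between 0.09, without vehicle array 1, and 1.22, and Tat between 0.13, without phenobarbital array 1, and 0.78. Phenobarbital array 1 was the highest mesenchymal array for 7 of 9 members and vehicle array 1 the lowest for 8 of 9, so leaving out both must lower the differences. Without them, a setting chosen after the values were seen, Pck1 was −0.16, G6pc −0.68, Fbp1 −0.49, Pcx −0.28, Tat −0.23, Tdo2 −0.59 and Foxo1 −0.07.

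The phenobarbital effect in hepatocytes minus that in mesenchymal cells was tested directly, and again no member passed. The fit called 0 of 9031 genes (0%), with 492, or 5.45%, at an unadjusted p under 0.05 and 0 of 9 members among them. The differences of the effects were −0.77 ± 0.67 for Pck1, −0.56 ± 0.86 for G6pc, −0.48 ± 0.61 for Fbp1, −0.37 ± 0.44 for Pcx, −0.60 ± 0.48 for Tat and −0.46 ± 0.68 for Tdo2. Those of the regulators were −0.13 ± 0.23 for Ppargc1a, −0.04 ± 0.24 for Foxo1 and −0.32 ± 0.29 for Irs2 (limma adjusted p from 0.94 to 0.987 over the 9). All 9 were negative, as were 13 of 13 hepatocyte markers, with medians of −0.46 and −0.44 beside −0.01 over all genes. The 9 include Ppargc1a and Irs2, which were under the filter on all 6 mesenchymal arrays. Their values subtract a mesenchymal change that may be background. The stellate cell markers were negative in 8 of 8, with a median of −0.36. With single arrays left out the Pck1 value ran from −1.17, without mesenchymal vehicle array 2, to −0.04, without mesenchymal vehicle array 1. Without the mesenchymal arrays phenobarbital 1 and vehicle 1, which raises these values by construction, G6pc stood at 0.75 and Tdo2 at 0.65.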

How the data were processed

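Total RNA of hepatocytes and mesenchymal cells was amplified, biotin-labelled and hybridised to Affymetrix 3′ arrays, 1 for each sample, as the labels' protocols state. The table the authors deposited gives log2 values for 22626 probe sets on 12 arrays, made with RMA per the submitters' processing notes. Version and annotation were not given in the sources used here. RMA brings the arrays close to a common distribution, with array medians of 7.19 to 7.44. A difference is therefore relative to the bulk of the array, and a common shift of most genes is largely lost. Precision is limited by having 3 arrays a group. Scan batches were not given in the sources used here, and 0 columns of the table went unused.

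Of the probe sets, 20380 had 1 symbol, 691 several and 1555 none, and no probe set with several symbols listed a member. A gene was read from its probe set of highest mean level across the arrays. Linear models were fitted with limma 3.58.1 in R 4.3.3 (lmFit, then eBayes with a trend in intensity) on genes above the 40th percentile in at least 3 arrays of the fit, with Benjamini-Hochberg adjustment over all genes tested and a threshold of 0.05. Treatment was tested on the 6 arrays of a population, and the other contrasts on all 12. The fits were tested on simulated data. Percents of the hepatocyte level are linear ratios of 2 to the power of the log2 values. Promoters were RefSeq windows of 250 bases on GRCm38.p6, and the array files name no build.

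All members were named whatever their values. Of the related lists, the 2 genes with the widest hepatocyte difference and any that passed in a phenobarbital comparison were named, along with Cyp2b10, Dbp and Arntl. Pck2, Gcgr, Nr3c1, Irs1, Insr, Foxo3, Foxo4, Cyp3a11 and the population values of Slc37a4 were chosen after their values were seen. The members and lists were chosen with earlier results of these data known. Replicates of a group correlated at r of 0.989 to 0.996, and none were identical. Deviations from group means correlated between same-numbered samples at 0.226, 0.213 and 0.178 for mesenchymal cells and hepatocytes of vehicle mice. The same correlations were 0.0718, −0.0616 and 0.0144 in phenobarbital mice. The numbers were therefore taken to pair samples in vehicle mice only, although the replicate block applied them to every group. Such correlations were −0.039, −0.0647 and −0.0797 between hepatocytes of phenobarbital and vehicle mice and −0.304, −0.0397 and 0.144 between mesenchymal cells of phenobarbital and vehicle mice. Alternatives concerned the low-level filter, centring of arrays, the choice of probe set, the eBayes prior, a replicate block and the arrays fitted.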

Additional observations from a re-analysis of the deposited data

How the results depend on the processing

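The count of members called was 8 in both population contrasts and 0 in the other comparisons under the alternatives run, leaving out single arrays included. The exception was the filter at the 60th percentile, which left Irs2 untested and 7 called in both population contrasts. Of the 8, Ppargc1a and Irs2 were under the main filter on all 6 mesenchymal arrays and entered through hepatocytes. The filter therefore fixed this count in part. With the replicate number as a replicate block it was again 8, 8, 0, 0 and 0, and the genes called were 4 in hepatocytes, 0 in mesenchymal cells, 0 in the difference of effects, 7484 between populations in phenobarbital mice and 7449 in vehicle mice. Under that block the 4 in hepatocytes were Cyp2b10, Cyp2c29, Cyp2c54 and Igfbp1 (limma adjusted p = 0.00895), with Cyp2c55 and Fdft1 lost, though the numbers do not pair those samples. Fdft1 was also lost with centred arrays, the mean of probe sets and no intensity trend. Genes called in hepatocytes fell to 1, Cyp2b10, with all 12 arrays in 1 fit, and were 1 to 5 with single arrays left out, where Bcl6 passed without vehicle array 1 (2.21, limma adjusted p = 0.0209). In the difference of effects 0 to 1 genes passed with single arrays left out, and 4 (Car3, Cyp2b10, Fabp1 and Ttr) without the mesenchymal arrays phenobarbital 1 and vehicle 1, an alternative added after the data were seen. For the members that alternative, which takes away the extreme arrays and so moves the differences by construction, turned the signs in mesenchymal cells, to −0.16 for Pck1, −0.68 for G6pc, −0.49 for Fbp1, −0.28 for Pcx, −0.23 for Tat, −0.59 for Tdo2 and −0.07 for Foxo1. It also turned the difference of effects, to 0.22 for Pck1, 0.75 for G6pc, 0.48 for Fbp1, 0.26 for Pcx, 0.07 for Ppargc1a, 0.14 for Tat, 0.65 for Tdo2 and 0.14 for Foxo1. In hepatocytes the sign turned for Fbp1 with centred arrays (0.00048), for Pck1 with the mean of its probe sets (−0.15) and for Foxo1 with probe set 1416982_at (−0.01). The Foxo1 difference of effects was 0.06 with the mean of probe sets and 0.01 without both vehicle arrays numbered 1, and its population difference was 0.02 without those arrays in vehicle mice, and −0.22 centred or −0.21 with the mean of probe sets in phenobarbital mice. Leaving out single arrays gave hepatocyte differences of −0.03 to 0.13 for Pck1, −0.16 to 0.36 for G6pc, −0.03 to 0.01 for Fbp1, −0.08 to 0.09 for Pcx, −0.16 to 0.12 for Ppargc1a, −0.16 to 0.03 for Tat, −0.01 to 0.12 for Tdo2 and −0.05 to 0.26 for Foxo1. In mesenchymal cells it gave −0.14 to 1.09 for G6pc, −0.06 to 0.89 for Fbp1, −0.04 to 0.69 for Pcx, −0.06 to 0.87 for Tdo2 and −0.06 to 0.21 for Foxo1. For the difference of effects it gave −1.02 to 0.22 for G6pc, −0.89 to 0.06 for Fbp1, −0.71 to 0.02 for Pcx, −0.23 to 0.05 for Ppargc1a, −0.81 to 0.12 for Tdo2 and −0.16 to 0.15 for Foxo1. For Foxo1 between populations it gave −0.02 to 0.06 in phenobarbital mice and −0.15 to 0.16 in vehicle mice. None of these turned values passed the test, and the cause was not tested. Of the alternatives other than leaving out single arrays, 327 member differences kept their sign and side of the threshold and 23 turned.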

Other observations

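For each member, the 3 tested genes with the highest Pearson r over the 6 hepatocyte arrays are given. This is a description over n = 6 arrays that share 1 normalization. The 3 were picked from the 8117 genes tested, and a top r near 0.99 over so few arrays can arise by chance, which was not tested. Fbp1 itself ranged over only 0.09 on these arrays. Pck1 ran closest with Fes, Wwp1 and Chic2 (r = 0.99 each), G6pc with Bsdc1, Atad3a and Aebp2 (0.99 each), Fbp1 with Zbed3, Retreg2 and Smoc1 (0.99 each) and Pcx with Parl, Slc20a2 and Apoe (0.99 each). Tat ran with Kat7 (0.99), Ppp2r2a (0.97) and Osbpl6 (0.96), and Tdo2 with Cep95 (0.99), Ighmbp2 (0.98) and Arnt (0.97). Of the regulators, Ppargc1a ran with Hspa2 (0.99), Ndufb9 (0.98) and Gm6607 (0.97), Foxo1 with Rrnad1 (0.99), Phyhipl (0.98) and Actl7b (0.98), and Irs2 with Efna1 (0.99), Lamp1 (0.99) and Oxct1 (0.98). None of the 27 named genes is another member.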
